A study of Mus musculus with 9 samples.

Results

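Gene expression in the hippocampus was compared between 6 adult and 3 young male mice, with the cognitive status of the adults averaged out. The 3 young mice (p1, mice 7, 19 and 20) were 11 weeks old and had normal cognition. The adults were 47 weeks old and comprised 3 mice with normal cognition (p2, mice 3, 8 and 18) and 3 with cognitive decline (p3, mice 2, 6 and 11), whose titles carry the suffix D, read here as decline. The p2 and p3 mice were the best and the worst scorers of a larger cohort in the Y-maze and open field tests, so the 6 adults are the extremes of their age group and not a random sample of it. The strain was C57BL6 in the labels and C57BL/6NCrSlc in the methods, no mouse carried a transgene or received a treatment, and young and adult mice were bought as separate cohorts. Cohort and age cannot be told apart. Each mouse had 1 Affymetrix Mouse Clariom S array, and the values are log2 signals per probe set, a group of probes that reads 1 transcript.

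All 9 mice of the series entered the comparison, but only 6291 of the 22206 probe sets had a value in every mouse. The remaining 15915 values of each p2 mouse (71.67% of its column) lie on a straight line and were not used. The 6291 probe sets carry identifiers of chromosomes 1 (1199), 2 (1825), 3 (1022), 4 (1335) and 5 (910), of which chromosome 5 was covered in part, and 5623 of them had a gene symbol. Genes of the other chromosomes were not compared.

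The hippocampus forms memories of places and events. Its dentate gyrus keeps a niche of neural stem cells whose output of new neurons falls steeply between youth and middle age in mice. Microglia, the resident immune cells, tag and remove synapses with complement proteins, and their activation with age is well known. Oligodendrocytes build the myelin sheath during early adult life, and a molecular clock of activators and repressors sets the daily rhythm of many transcripts. In whole tissue, fewer cells of a type and less RNA per cell cannot be told apart.

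Markers of the hippocampus were present in all mice. Prox1, which specifies dentate granule cells, had log2 values from 11.78 to 13.19, C1ql3 from 13.69 to 14.37, and Wfs1, a marker of CA1 pyramidal cells, from 11.59 to 12.24. The medians of the 9 arrays lay between 6.93 and 7, and any pair of arrays correlated at 0.990 to 0.995 across probe sets. Granule cell markers (12 measured) lay in the median 0.38 above the other mice in young mouse 7 and 0.43 in adult mouse 3. In adult mouse 11 they lay at -0.31. Young mouse 19 and adult mouse 11 stood apart in markers of neighbouring tissue. Genes of the choroid plexus, the tissue of the ventricles that secretes cerebrospinal fluid (14 measured), lay in the median 1.89 above the other mice in young mouse 19 and 1.75 above them in adult mouse 11, whereas the other 7 mice lay between -0.70 and -0.22. The mean log2 value of these 14 genes ranged from 6.30 to 8.89 in young and from 6.02 to 8.80 in adult mice. Kcnj13, a potassium channel of choroid plexus cells, was at 14.88 and 14.74 in these mice and at 6.79 to 10.20 in the others. Adult mouse 11 also stood out in thalamus markers (12 measured), 1.72 above the other mice, while the others lay between -0.32 and -0.09. The mean of the thalamus list was 7.34 to 7.43 in young and 7.26 to 8.98 in adult mice. For many of the genes below, values are therefore also given without 1 or both of these mice.

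**Figure D1:**
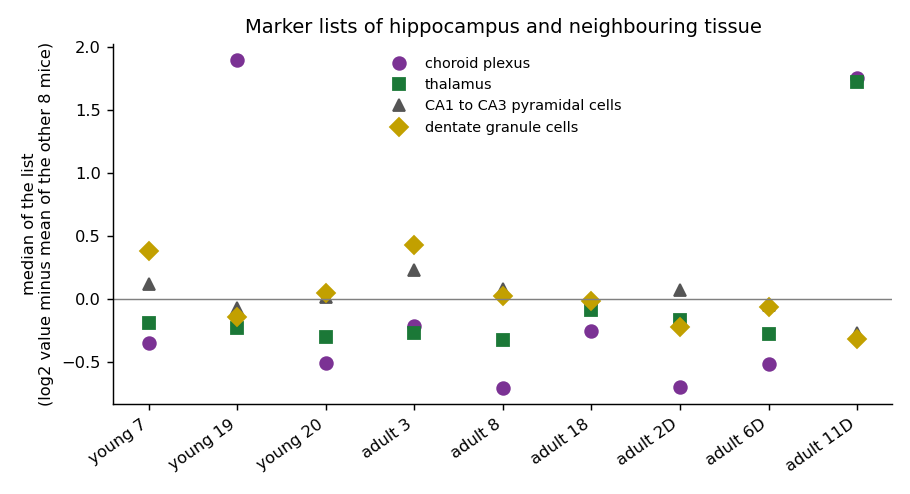
The median of 4 marker lists is plotted for each mouse as the log2 value minus the mean of the other 8 mice. Choroid plexus markers are high in young mouse 19 (1.89) and adult mouse 11D (1.75) and thalamus markers in adult mouse 11D (1.72), while the lists of pyramidal and granule cells stay within 0.43 of the other mice.

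To ask which transcripts differ with age, the mean of p2 and p3 was compared with p1 in 1 linear model (limma). The study applied a fold of 1.5 and a p of 0.05 and named no adjustment. With limma's unadjusted p in this rule, 47 probe sets differed (0.747% of those tested). Of these, 29 were higher (0.461%) and 18 lower (0.286%) in adult mice, and 43 had a gene symbol. At an adjusted p under 0.05 (Benjamini-Hochberg over 6291 probe sets) limma called 0, and the smallest adjusted p was 0.508. The count at an unadjusted p under 0.05 was 300 (4.77%), 138 higher and 162 lower, which is no more than the 5% such a threshold admits where nothing differs. The differences were small: the fold change passed 2 in 2 of the 47, and the median difference over all probe sets was 0.0017. With young mouse 19 and adult mouse 11 left out, 115 probe sets passed the threshold, of which 32 were among the 47. The adult and young mice did not overlap in 119 of the 6291 probe sets (1.89%), 51 higher (0.811%) and 68 lower (1.08%), and in 18 of the 47, a trait that the choice of the 47 favours. The genes described below are therefore the leading differences in these 9 mice, none of which holds after adjustment, and "past the threshold" refers to the study's threshold throughout.

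**Figure D2:**
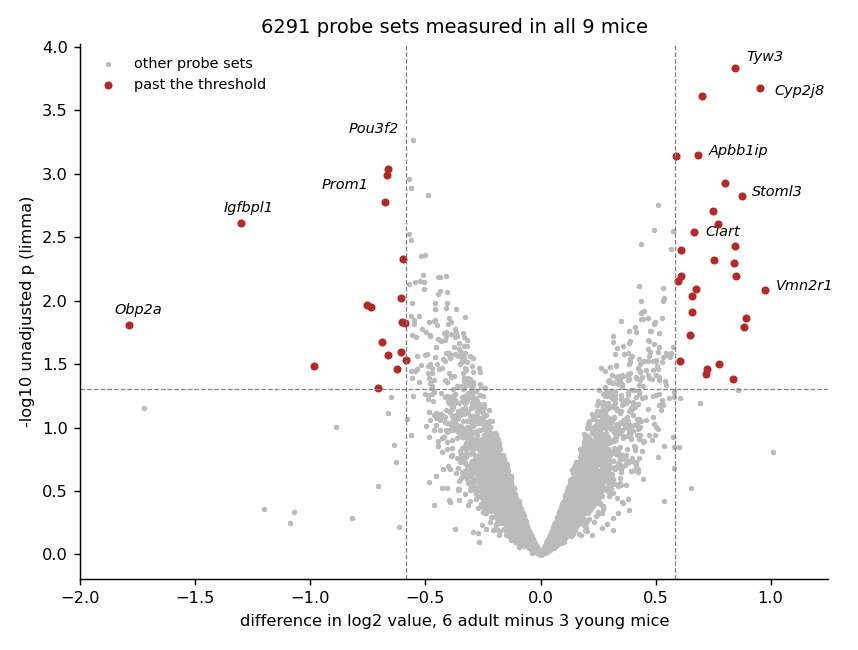
Each point is 1 of 6291 probe sets, with the difference in log2 value between 6 adult and 3 young mice on the x axis and -log10 of the unadjusted limma p on the y axis. Dashed lines mark the fold of 1.5 and the p of 0.05, and the 47 probe sets past both are red, with Tyw3 and Cyp2j8 at the smallest p among named genes on the higher side and Obp2a and Igfbpl1 as the largest of these 47 differences on the lower side.

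The smallest p among the higher genes belonged to a pair of enzymes. Tyw3, which takes part in the making of wybutosine, a modified base of phenylalanine tRNA, had log2 values of 4.97, 5.02 and 4.72 in young mice 7, 19 and 20. In adult mice it ranged from 5.49 to 6.15 with a median of 5.71, so that every adult lay above every young mouse. The difference was 0.85 (standard error 0.15, adjusted p = 0.508 from limma). Cyp2j8, a cytochrome P450 of the family that oxidises arachidonic acid, was at 4.21, 4.18 and 4.59 in the young mice and at 4.91 to 5.81 (median 5.27) in the adults, again without overlap. It differed by 0.95 (standard error 0.17, 1.93-fold). Both were low transcripts, at percentiles 37.7 and 31.8 of level among the probe sets. Both stayed past the threshold under every alternative tried for single genes, which leaves out the filters on level, and their difference from p1 was 0.70 and 0.78 in p2 and 0.99 and 1.12 in p3. The p2 and p3 differences share the p1 mice, here and below.

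Of the other enzymes past the threshold on the higher side, Wars2, which charges the mitochondrial tryptophan tRNA, was at 5.34 to 5.45 in young and 5.74 to 6.34 in adult mice (0.59, standard error 0.12). It lay so close to the fold limit that leaving out any 1 of 5 mice (young 19 and 20, adult 3, 2 and 6) brought it to between 0.54 and 0.58, short of it. Bbox1, the last enzyme of carnitine synthesis, was at 6.51 to 7.31 in young and 7.40 to 8.0 in adult mice (0.77, standard error 0.19), and at 0.57 without young mouse 20. Etnppl, an enzyme of ethanolamine phosphate breakdown found mainly in astrocytes, was higher by 0.89 (standard error 0.30), although its groups overlapped and the difference was 0.48 without young mouse 7. Its difference from p1 was 0.49 in p2 and 1.3 in p3, and p3 and p2 differed at an unadjusted p of 0.0413.

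Apbb1ip, an adaptor that links the small GTPase Rap1 to integrins and is found in microglia and other leukocytes, was at 5.73, 6.24 and 5.93 in young mice. The adults ranged from 6.47 to 6.90 (median 6.66) and did not overlap with them. The difference was 0.68 (standard error 0.14, 0.74 in p2 and 0.63 in p3), and 0.57 without young mouse 7. Stoml3, a stomatin-like membrane protein that tunes mechanosensitive channels in sensory neurons, was at 6.03, 7.01 and 6.49 in young and at 7.18 to 7.67 (median 7.31) in adult mice, a difference of 0.87 (standard error 0.20). Ankub1, which has ankyrin repeats and a ubiquitin-like domain, was at 6.71 to 7.41 in young and 7.47 to 8.22 in adult mice (0.75). Tmem81, a transmembrane protein, was at 3.88 to 4.51 against 4.65 to 5.33 (0.80). In Stoml3, Ankub1 and Tmem81 the adults lay above the young mice without overlap, and each stayed past the threshold under every alternative.

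I830077J02Rik had overlapping groups but the same stability, with 5.97 to 6.32 in young and 6.30 to 7.63 in adult mice (0.85, standard error 0.25). Lhx9, a LIM homeobox factor of brain development, was higher by 0.61, with 0.82 in p2 and 0.41 in p3, and fell short of the threshold without young mouse 19 (0.48), young mouse 20 (0.58) or adult mouse 11 (0.55). Gm1979 (0.60) and Olfr996, an olfactory receptor gene (0.61), each failed without any 1 of 4 mice, at 0.47 to 0.57 and 0.40 to 0.58. Olfr996 had log2 values of 3.25 to 4.52, at percentile 18.2 of level, in the range of receptor genes that brain tissue rarely transcribes. Vmn2r1, a vomeronasal receptor gene at percentile 29.7 of level (3.59 to 4.87 in young, 4.65 to 5.70 in adult mice), was higher by 0.98, and by 0.70 with the call lost without young mouse 20.

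**Figure D3:**
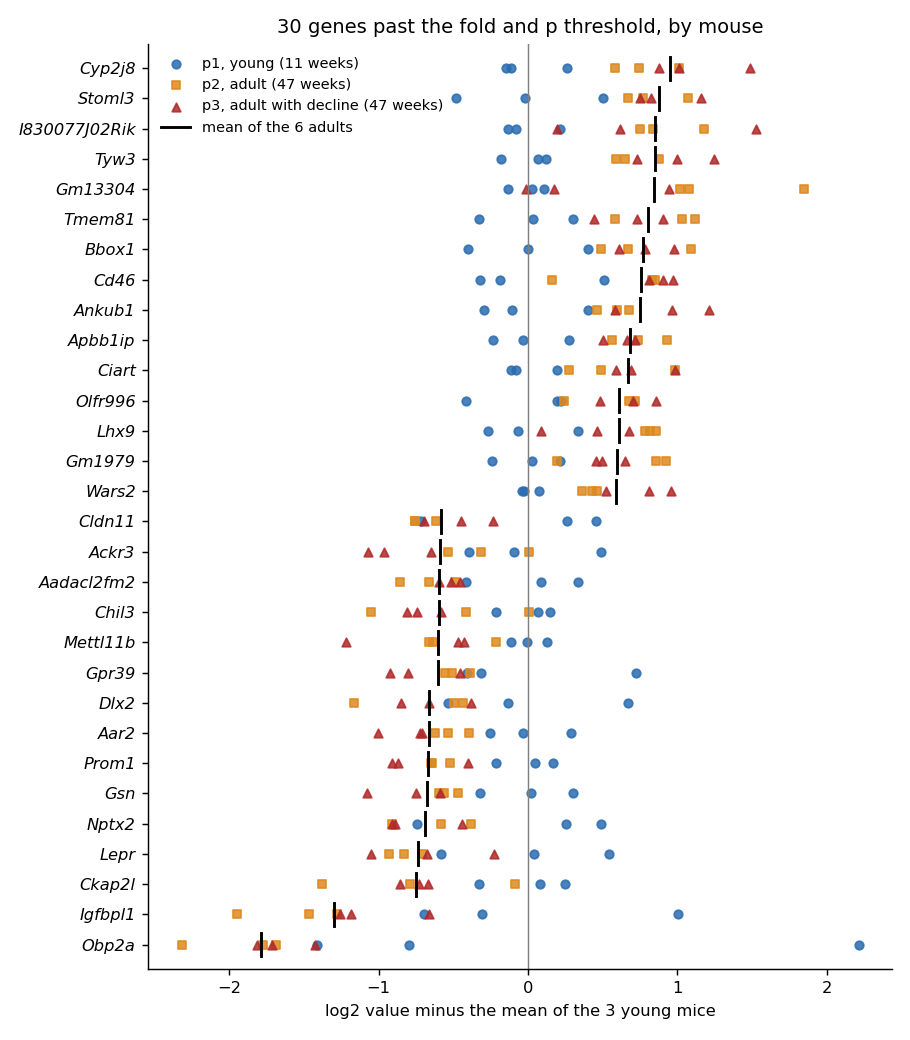
For the 15 higher and 15 lower named genes of smallest p, the x axis gives each mouse's log2 value minus the mean of the 3 young mice, with p1 as blue circles, p2 as orange squares and p3 as red triangles. Black bars mark the mean of the 6 adults, from -1.79 (Obp2a) to 0.95 (Cyp2j8), and the spread of the blue circles shows how far single young mice, such as mouse 19 for Obp2a and Igfbpl1, set a mean.

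The genes past the threshold on the lower side included Igfbpl1, Prom1 and Dlx2, although Aar2, described below, had the smallest p. Igfbpl1 and Dlx2 are on the list of immature neuron and neurogenesis genes, of which Sox2, Nes, Hes5 and Hopx differed little. Dlx2 is also on the interneuron list, and Prom1 is on neither. Igfbpl1, an IGF-binding-like protein marking newborn neurons, was dim (percentile 19.2 of level). Its values were 4.70, 6.01 and 4.31 in young mice 7, 19 and 20. The adults ranged from 3.06 to 4.34 with a median of 3.74, and only adult mouse 11 (4.34) reached the lowest young mouse. The difference of -1.3 (standard error 0.33, a 2.46-fold lower level, adjusted p = 0.860 from limma) was one of the 2 among the 47 that passed a fold of 2, with -1.56 in p2 and -1.04 in p3. It was -0.89 without young mouse 19 and adult mouse 11. Prom1 (CD133), a membrane glycoprotein of neural stem and ependymal cells, was at 8.92, 8.66 and 9.04 in young mice and at 7.96 to 8.47 (median 8.23) in adults. These groups did not overlap, and the difference of -0.67 (standard error 0.15, -0.61 in p2 and -0.73 in p3) was -0.74 without the mice that stand apart. Dlx2, a homeobox factor of GABAergic progenitors, was on the lower side by a log2 difference of -0.66, but by -0.33 without young mouse 19, where it was highest (7.73), and it also lost the call without adult mouse 3 (-0.55) or 6 (-0.61). Pou3f2, a POU factor of neural progenitors and upper-layer neurons, had the smallest p among the probe sets short of the fold. It was at 5.55, 5.73 and 5.68 in the young mice and at 4.96 to 5.2 in the adults, with no overlap and a difference of -0.55 (standard error 0.11).

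Of the list of immature neuron and neurogenesis genes, 20 of 46 were measured, and 16 of the 20 lay on the lower side, with a median difference of -0.18. Over all 6291 probe sets, 50.4% lay on the higher side and the median was 0.0017. At an unadjusted p under 0.05, 3 of the 20 were lower and 0 higher, where 2.58% and 2.19% of all probe sets were, and 2 (Igfbpl1 and Dlx2) passed the threshold. The third was Marcksl1, an actin-binding protein of growing neurites, at 6.68, 6.39 and 6.72 in young and 5.96 to 6.32 in adult mice (-0.45, standard error 0.13). Its groups did not overlap. Insm1 (-0.23), Draxin (-0.26), Dlx1 (-0.27), Dpysl5 (-0.18) and Stmn1 (-0.19) lay on the same side at unadjusted p-values from 0.0956 to 0.301. The stem cell genes Sox2 (-0.09), Nes (-0.04), Hes5 (-0.04) and Hopx (0.08) differed little. So did Neurog2 (0.12), Mex3a (0.07) and Elavl4 (0.03), which with Hopx were the genes of the list on the higher side. The list median ranged from -0.19 to -0.12 as single mice were omitted. The granule cell list, which shares Marcksl1 and Prox1 with it, had 6 of 12 genes on each side and a median of -0.06.

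Genes of cell division gave single low values and no shift of the list. Ube2c, the ubiquitin-conjugating enzyme of the anaphase-promoting complex, was at 4.01, 3.95 and 4.04 in the young mice and at 3.12 to 3.77 (median 3.40) in the adults, which did not overlap. The difference was -0.56 (standard error 0.13, -0.70 in p2 and -0.43 in p3), just short of the fold. Kif2c, a kinesin that frees misattached microtubules from centromeres, was at 4.69, 4.79 and 4.83 against 4.03 to 4.57, a difference of -0.57 and also without overlap. Ckap2l, a spindle protein of dividing progenitors, was at 4.83, 5.24 and 5.41 in young and 3.78 to 5.07 in adult mice. It passed the threshold (-0.75, standard error 0.24, with the same difference in p2 and p3), but reached -0.63 and lost the call without young mouse 20. All 3 were dim, at percentiles 11.2, 23.1 and 27.8 of level. Kif2c and Ckap2l are not on the cell division list, and Kif2c was named after its values were seen. Of the 22 measured genes of the list, 9 were higher and 13 lower, the median was -0.06, and only Ube2c had an unadjusted p under 0.05. The replication clamp Pcna (-0.08), the cyclin Ccna2 (-0.06) and the helicase subunit Mcm3 (0.22) had unadjusted p-values of 0.507, 0.782 and 0.372. Plk3, a kinase of stress and growth responses that was also named after its values were seen, lay without overlap at 7.05 to 7.40 in young and 6.48 to 7.01 in adult mice (-0.57).

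**Figure D4:**
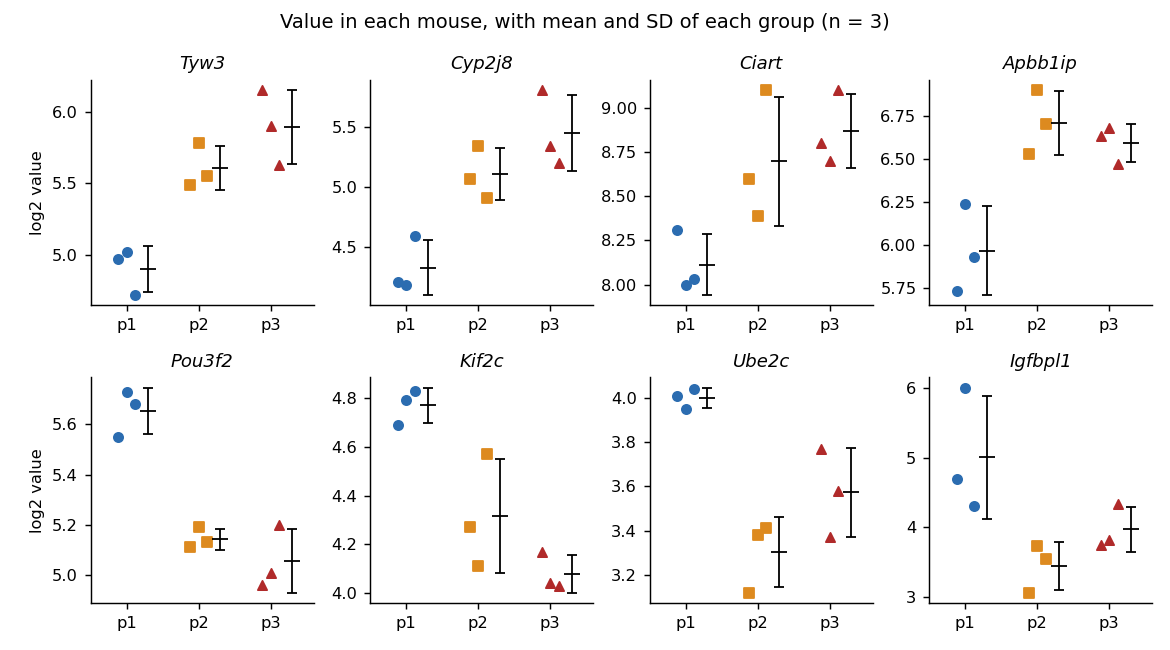
The log2 value of 8 genes is shown for each mouse, with the mean and SD of p1, p2 and p3 (n = 3 mice each) as black marks. In Tyw3, Cyp2j8, Ciart and Apbb1ip both adult groups lie above p1, in Pou3f2, Kif2c and Ube2c both lie below it, and in Igfbpl1 1 p3 mouse reaches the lowest p1 mouse.

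The 250 bases before the annotated start are shown for Ube2c and Ckap2l because genes of the late cell cycle are read through a pair of short elements, the CHR element (TTTGAA) and the CCAAT box (CCAAT). The sequences are from RefSeq (GRCm38.p6) and run 5′ to 3′ on the gene's strand, with both motifs in capitals on either strand. The stretches are chr2:164769679-164769928 on the plus strand for Ube2c and chr2:129297213-129297462 on the minus strand for Ckap2l.
Ube2c: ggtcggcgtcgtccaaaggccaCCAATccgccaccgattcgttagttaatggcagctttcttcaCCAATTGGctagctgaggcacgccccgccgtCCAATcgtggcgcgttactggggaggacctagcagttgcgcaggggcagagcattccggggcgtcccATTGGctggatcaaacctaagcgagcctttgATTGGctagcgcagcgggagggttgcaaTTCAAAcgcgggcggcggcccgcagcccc
Ckap2l: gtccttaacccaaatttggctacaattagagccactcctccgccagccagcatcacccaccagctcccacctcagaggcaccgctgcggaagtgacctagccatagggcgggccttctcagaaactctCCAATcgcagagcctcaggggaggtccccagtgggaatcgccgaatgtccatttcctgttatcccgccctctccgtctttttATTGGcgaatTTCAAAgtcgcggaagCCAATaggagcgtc
Ube2c holds 1 CHR element, which begins 29 bases before the start, and 6 CCAAT matches, of which a pair overlaps on opposite strands. Ckap2l holds 1 CHR element, 30 bases before the start, and 3 CCAAT matches. In the same window of 32851 mouse promoters, 16% hold a CHR element, 10.1% at least 2 and 2.79% at least 3 CCAAT matches. Of the 19 measured cell division genes with a promoter entry, 2 (Ube2c and Cdc20) held a CHR element and 10 at least 2 CCAAT matches.

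Some genes of the myelin sheath were among the most abundant transcripts that lay lower in adult mice. Cldn11, the claudin of the tight junctions between myelin layers, was at 12.85, 13.04 and 11.87 in young mice 7, 19 and 20 and at 11.83 to 12.35 (median 11.93) in adults. It passed the threshold at its very edge (-0.58), its groups overlapped, and it lost the call without any 1 of 5 mice (young 7 and 19, adult 8, 18 and 2), with -0.36 without young mouse 19. Tspan2, a tetraspanin of oligodendrocytes, differed by -0.55, Ugt8a, which makes the myelin lipid galactosylceramide, by -0.43 and Mal, a myelin proteolipid named after its values were seen, by -0.35. In all 4 the young mice 7 and 19 were high and young mouse 20 lay within or near the adult range, as for Tspan2 (13.65 and 14.10, against 13.19 and adults from 12.75 to 13.43). At an unadjusted p under 0.05, 4 of the 10 measured myelin genes were lower and 0 higher, where 2.58% and 2.19% of all probe sets were. The other 6 ran from -0.24 (Qdpr) to 0.49 (Hapln2), so that the list had 5 genes on each side. The list median was -0.11, from -0.35 to -0.04 as single mice were left out. Gsn, the actin-severing protein gelsolin, which oligodendrocytes also make, was at 8.72, 9.0 and 8.38 in young and 7.62 to 8.23 in adult mice without overlap (-0.68, standard error 0.16), and at -0.53 without young mouse 19.

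**Figure D5:**
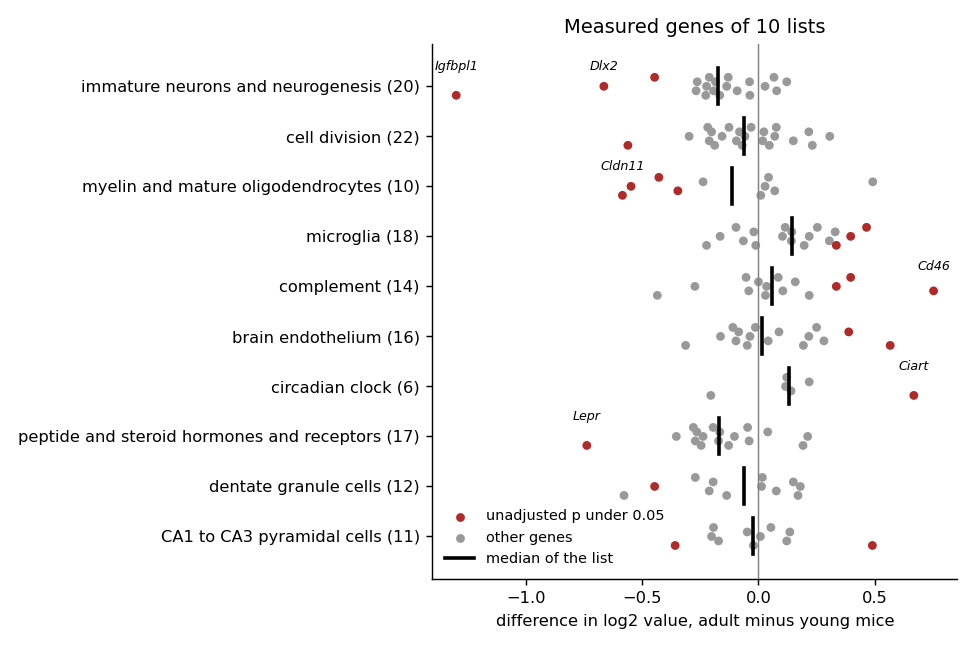
Each point is a measured gene of 1 of 10 lists (number of genes in parentheses), with its difference in log2 value between adult and young mice on the x axis. Red points have an unadjusted p under 0.05, and black bars are list medians, from -0.18 (immature neurons) to 0.14 (microglia). The genes past the threshold are named (Igfbpl1, Dlx2, Cldn11, Cd46, Ciart and Lepr).

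Among 18 measured microglial genes 12 had a difference above 0 (50.4% over all probe sets) and 6 below it, and none was past the threshold. The median of 0.14 stayed between 0.05 and 0.24 as single mice were left out, and was 0.08 without young mouse 19 and adult mouse 11. At an unadjusted p under 0.05, 3 were higher and 0 lower, where 2.19% and 2.58% of all probe sets were. Fcgr3, an activating receptor for IgG, was at 9.44, 8.93 and 9.28 in young and 9.43 to 9.99 in adult mice (0.46, standard error 0.16). C1qb and C1qc, chains of the C1q molecule that opens the complement cascade, were higher by 0.40 and 0.34, and their partner C1qa differed by 0.22 at an unadjusted p of 0.230. Ctss, the lysosomal protease cathepsin S, was the only gene of the list without overlap, at 9.86 to 10.08 in young and 10.10 to 10.30 in adult mice (0.25, unadjusted p = 0.0505). The purine receptor P2ry12 (-0.02) and the leukocyte phosphatase Ptprc (-0.01) differed least, and Fcrls (-0.22) and Olfml3 (-0.07), which are enriched in resting microglia, lay on the lower side at unadjusted p-values of 0.176 and 0.701. The score of the list was lowest in young mouse 19, at -0.28 relative to the other mice, and highest in young mouse 7, at 0.12. Young mouse 20 was at -0.09. The part of young mouse 19 in the difference was not tested further than by leaving it out.

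In the complement list, 10 of 14 measured genes lay on the higher side (50.4% over all probe sets), with a median of 0.06. At an unadjusted p under 0.05, 3 were higher, C1qb, C1qc and Cd46, where 2.19% of all probe sets were. Cd46, a membrane cofactor that inactivates C3b and in mice is best known from the testis, was at 7.24, 8.07 and 7.37 in young mice. Another 5 mice, all adult, lay between 8.37 and 8.53 and adult mouse 8 at 7.72, a difference of 0.75 (standard error 0.21) that stayed past the threshold under every alternative. Among endothelial genes Eng, a TGF-beta coreceptor of vessels, was at 7.76, 7.30 and 7.32 in young and 7.77 to 8.22 in adult mice (0.57, just short of the fold), and the adhesion receptor Adgrl4 was higher by 0.39, while the list of 16 was split 8 to 8. Of 16 interferon-induced genes, 0 had an unadjusted p under 0.05. Among 38 cytokine and chemokine genes, Il10 (0.39) was higher, Cxcl11 (-0.47) lower and Ccl21b (0.65) past the threshold, and Il1b (0.20), Il6 (0.07) and Il1a (-0.14) had unadjusted p-values of 0.407, 0.825 and 0.336. Chil3, the chitinase-like protein Ym1 of alternatively activated macrophages, was dim (2.90 to 4.10) and differed by -0.60, with 4 mice (young 19 and 20, adult 18 and 2) whose removal ended the call at -0.57 to -0.46.

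Ciart (Chrono), a repressor that acts on the CLOCK and BMAL1 activators, was the clock gene past the threshold. It was at 8.31, 8.0 and 8.03 in the young mice and at 8.39 to 9.10 (median 8.75) in the adults, with no overlap. The difference was 0.67 (standard error 0.17, 0.58 in p2 and 0.75 in p3). It fell short of the fold without adult mouse 18 (0.57), and without both young mouse 19 and adult mouse 11 (0.55). Of the 6 clock genes measured, 5 lay on the higher side (50.4% over all probe sets). Per3 was at 0.22, Cry2 at 0.14, Clock and Npas2 each at 0.12 and Per2 at -0.20. None of these had an unadjusted p under 0.05. The hour at which the tissue was taken is not given in the sources used here, and its part in these values was not tested.

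The 250 bases before the Ciart start (RefSeq, GRCm38.p6, chr3:95882229-95882478, minus strand) are shown because the clock activators bind the E-box CACGTG, here in capitals.
Ciart: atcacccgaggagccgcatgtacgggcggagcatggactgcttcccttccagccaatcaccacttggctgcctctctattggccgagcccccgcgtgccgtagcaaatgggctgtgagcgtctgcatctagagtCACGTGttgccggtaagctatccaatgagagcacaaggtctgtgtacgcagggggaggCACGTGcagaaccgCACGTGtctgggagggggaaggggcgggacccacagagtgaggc
The stretch holds 3 E-boxes, which begin 116, 58 and 44 bases before the start. At least 1 stands in 6.02% of 32851 promoters and at least 3 in 0.0609%. None of the other 4 measured clock genes with a promoter entry held one in this window.

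Among genes of synapses and signalling, Nptx2, a pentraxin that neurons secrete upon activity and that gathers AMPA receptors, was at 8.36, 7.36 and 8.59 in young mice and at 7.19 to 7.72 in adults. The difference of -0.69 (standard error 0.25) was -1.02 without young mouse 19, whose value lay inside the adult range, and adult mouse 11, and it lost the call without young mouse 7 (-0.56) or 20 (-0.45). Of the 13 immediate early genes measured, Nptx2 and Ier5 (-0.46) were lower at an unadjusted p under 0.05, where 2.58% of all probe sets were. The list median was -0.01, and Bdnf differed by -0.19. Lepr, the leptin receptor, was at 5.96, 7.08 and 6.58 in young and 5.49 to 6.31 in adult mice (-0.74), with -0.47 and no call without young mouse 19. Its list of peptide and steroid hormones and receptors had 14 of 17 measured genes on the lower side. Over all probe sets, 50.4% lay on the higher side. The list median was -0.17 (-0.22 to -0.10 as single mice were left out), and Lepr was its only gene with an unadjusted p under 0.05. Gpr39, a receptor for zinc (-0.61), lost the call without young mouse 20 (-0.24) or adult mouse 2 (-0.56), and Ackr3, which scavenges the chemokine CXCL12, differed by -0.28 in p2 and -0.90 in p3 (-0.59 over both), and lost the call without young mouse 7 (-0.34) or adult mouse 8, 18, 2 or 11. Kcna4, a potassium channel of axons, was higher by 0.53, at 10.11 to 10.43 in young and 10.49 to 11.11 in adult mice without overlap.

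Of the remaining lower genes, Aar2, an assembly factor of the U5 splicing particle, was at 7.34, 7.66 and 7.12 in young and 6.37 to 6.98 in adult mice without overlap (-0.66), and at -0.52 without young mouse 19. Mettl11b (-0.60) and Aadacl2fm2 (-0.60) did not overlap between groups either, but each lost the call without any 1 of 4 mice. Mettl11b was at -0.535 without both young mouse 19 and adult mouse 11, and Aadacl2fm2 was dim (percentile 7.8 of level). Obp2a, an odorant-binding protein gene at percentile 15.9 of level, gave the largest difference of all (-1.79, standard error 0.62). Its values were 3.71, 7.34 and 4.33 in young mice 7, 19 and 20 and 2.81 to 3.70 in adults, so the groups did not overlap. The difference was -0.68 without young mouse 19, the highest, and -0.67 without it and adult mouse 11, and the call was kept whichever single mouse was left out. Bpifb9a and Lcn11, other genes of secreted lipid-binding proteins, were high in the same young mouse (7.65 and 5.07) and lay at -0.29 and -0.22 without it, short of the threshold. Bpifb9a also lost the call without adult mouse 3, 8, 2 or 6, and Lcn11 without young mouse 7 or adult mouse 3, 18, 2 or 11. Lcn11 was dim (percentile 11.3 of level).

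The copies of the Ccl21 chemokine gene on chromosome 4 were higher in adults as a block, but not in all of them. Gm13304, a predicted gene in this multi-copy region, was at 8.78, 9.02 and 8.94 in young mice. Its values were 9.99, 9.93 and 10.76 in p2 mice 3, 8 and 18, 9.86 in p3 mouse 2, and 8.90 and 9.09 in p3 mice 6 and 11, which thus lay within or next to the young range. The difference was 0.84 (standard error 0.24), composed of 1.31 in p2 and 0.37 in p3, and p3 minus p2 was -0.94 (no probe set had an adjusted p below 0.842 in limma in that comparison). Gm10591 (0.66, 1.14 in p2 and 0.18 in p3) and Ccl21b (0.65, 0.99 and 0.31) followed the same order. The neighbouring copies Fam205a1 to Fam205a4 and Fam205c differed by 0.37 to 0.49, none past the threshold. Gm13304 stayed past the threshold whichever mouse was left out, whereas Gm10591 lost it without young mouse 7 (0.50), adult mouse 18 (0.57) or adult mouse 2 (0.56), and Ccl21b without young 7 (0.48) or adult 18 (0.54) or 2 (0.55). Ccl21b also lost it without young mouse 19 by its p.

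The 250 bases before the start of Gm13304 (chr4:42114537-42114786, plus strand) and Ccl21a (chr4:42773992-42774241, minus strand), from RefSeq GRCm38.p6, show how alike the copies are. Capitals mark the bases that differ.
Gm13304: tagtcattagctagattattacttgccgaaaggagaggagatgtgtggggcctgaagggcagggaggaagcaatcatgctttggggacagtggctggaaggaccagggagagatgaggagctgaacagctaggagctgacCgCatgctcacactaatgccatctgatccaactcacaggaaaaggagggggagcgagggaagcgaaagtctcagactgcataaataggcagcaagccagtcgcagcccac
Ccl21a: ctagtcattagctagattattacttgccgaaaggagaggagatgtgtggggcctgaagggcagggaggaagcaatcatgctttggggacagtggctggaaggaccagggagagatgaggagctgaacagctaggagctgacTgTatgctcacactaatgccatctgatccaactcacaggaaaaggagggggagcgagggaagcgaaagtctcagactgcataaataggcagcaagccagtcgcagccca
Over 249 bases, offset by 1, the pair differed at 2, and Gm10591 was identical to Gm13304 over all 250. At similarly small offsets, the stretch before the annotated start of Ccl21b had 33.1% identity with Gm13304, and larger offsets were not tried. Ccl21a had no measured probe set under its own symbol. Transcript and probe sequences were not compared. Probe sets of this region may read more than 1 copy, so their values cannot be taken as independent or assigned to single genes.

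Several other lists held no called gene. Of 18 genes of oxidative phosphorylation, 16 cytosolic ribosomal proteins, 25 collagens and matrix genes, 13 chaperones, 8 synaptic vesicle and postsynaptic genes, 11 genes of GABA synthesis and receptors and 5 glutamate receptors, none had an unadjusted p under 0.05, and their medians lay between -0.06 and 0.04. Lists with medians further below 0 included the glucocorticoid response (4 genes, -0.18), acetylcholine receptors and handling (10, -0.16), amyloid and tau processing (7, -0.14) and insulin and IGF signalling (12, -0.11). They held 2 genes with an unadjusted p under 0.05, Chrnd, a muscle-type acetylcholine receptor subunit that was dim here (2.28 to 3.66, difference -0.55), and Ptpn1, which dephosphorylates the insulin receptor (-0.33). The insulin and IGF median was 0.0067 without young mouse 19 and adult mouse 11, and -0.13 to 0.05 as single mice were left out. Medians below 0 were also seen in the marker lists of choroid plexus (14, -0.26), striatum (2, -0.21) and interneurons (17, -0.17). As single mice were left out, these ranged from -0.65 to 0.28, -0.28 to -0.15 and -0.195 to 0.06. Voltage-gated channels (22) had 2 higher, Kcna4 and Kcnd3 (0.39), and 1 lower, Kcnh1 (-0.42), and antioxidant genes (21) 1 higher, Gstm4, a glutathione transferase (0.36). Over all probe sets, 2.19% were higher and 2.58% lower at this p. Wnt4, a secreted signal of the Wnt family, did not overlap between groups (0.41, 5.89 to 6.37 in young and 6.40 to 6.93 in adult mice), and Fgf2, a growth factor of neural stem cells, differed by -0.40. Among pyramidal cell markers Lypd1 (-0.36) was lower and Zfp831 (0.49) higher, with a list median of -0.02. Ntng1, an axonal netrin-related protein on the thalamus list, passed the threshold (0.84), with its highest value in adult mouse 11 (13.79), but lost the call without any 1 of 7 mice (young 7, 19 and 20, adult 8, 18, 2 and 11), with 0.61 without adult mouse 11. In 44 lists with measured genes, the smallest adjusted p of a member was 0.722 (Ube2c).

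The p2 and p3 mice, averaged above, were also set against each other. Of the 47 probe sets past the threshold, 10 also had an unadjusted p under 0.05 for p3 against p2. Over all probe sets that comparison called 343 (5.45%) at an unadjusted p under 0.05 and 0 after adjustment. The 10 include Gm13304, Gm10591 and Ccl21b of the multi-copy region, whose values cannot be taken as independent. Among them were also chromosome 4 probe sets without a symbol, with p3 minus p2 at -0.95 and -0.69. The 10 are therefore not separate calls to set against the 5.45%. Mmp17, a membrane-type metalloproteinase, was at 8.83 to 8.88 in p1 and 8.59 to 9.25 in p2, but at 7.81 to 8.14 in p3, so its adult difference of -0.42 describes neither adult group.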

How the data were processed

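RNA of the whole hippocampus of 9 mice was labelled and read on Clariom S arrays, 1 per mouse. The authors normalized the arrays in the Transcriptome Analysis Console and the deposited unit is the log2 value of a probe set. How background was corrected and probes were summarised, and on which build, is not given in the sources used here. The number of arrays limits the precision. In the p2 columns, values with more than 2 decimals form a filled line. Rows before the first of them were kept, and 0 other columns of values were unmapped. Symbols came from the platform annotation, updated by Entrez ID to GRCm38.p6. RefSeq promoters matched 28 of the 30 genes of the first naming rule.

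One limma model (limma 3.58.1, R 4.3.3, lmFit and eBayes, residual degrees of freedom 6, prior 4.46) held the means of p1, p2 and p3, and the contrast was the mean of p2 and p3 minus p1, adjusted by Benjamini-Hochberg over 6291 probe sets. Differences are on the log2 scale and folds are linear, and the median standard error was 0.16. The named genes are the 15 higher and 15 lower with the smallest p among named probe sets past the study's threshold, 3 genes of smallest p of each of 45 lists (557 entries measured, clustered protocadherins without any), and the other copies of a multi-copy region. Bpifb9a, Lcn11, Etnppl, Pou3f2, Kif2c, Plk3, Mal, Fign, Pdcd1 and list genes beyond the 3 of smallest p were named after their values were seen. The members and lists were chosen with earlier results of these data known. The alternatives are another model, moderation, scaling, filter or fold, array weights, a choroid plexus covariate and leaving out mice. The fit was tested on simulated data. Plots used Python 3.11.15 and matplotlib 3.10.9.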

Additional observations from a re-analysis of the deposited data

Results flagged for a closer look

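A set of 86 genes was checked one by one. It held the leading 30, the multi-copy region and list genes with an unadjusted p under 0.05. Other list genes were added by choice, and further genes after their values were seen. In 10 of the 86, 1 adult mouse lay far from the other 5 by Dixon's criterion. Chance flags about 1 in 20 groups, but the chosen genes cannot be set against that rate. Synpo2, Shox2 and Igfbp2 come from the thalamus and choroid plexus lists, in which adult mouse 11 was already seen to be high. Adult mouse 11 (p3) was the far sample in 7 of the 10, with log2 values of 9.41 for Synpo2 and 7.61 for Shox2 (thalamus list), 11.55 for Igfbp2 (choroid plexus list), 11.32 for Per3, 7.25 for Fign and 5.23 for Il10, all above the other adults, and 7.2 for Zfp831, below them. Adult mouse 8 (p2) was low in Cd46 (7.72) and Pdcd1 (3.12), and adult mouse 18 (p2) was high in Cxcl11 (4.02).

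The p3 and p2 mice, averaged in the adult mean, differed at an unadjusted limma p under 0.05 in 8 of the 86 genes (9.30%, where 5.45% of all probe sets did), and in none after adjustment. The p3 minus p2 difference in log2 value was -0.94 for Gm13304, -0.95 for Gm10591 and -0.68 for Ccl21b, which lie in 1 multi-copy region, -0.97 for Mmp17 and -0.62 for Ackr3, and it was 0.81 for Etnppl, 0.78 for Pdcd1 and 0.35 for Wars2. Since these genes were named from a contrast that holds the same adult mice, these differences are descriptions.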

How the results depend on the processing

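The count of probe sets past the study's threshold (47) was 46 to 63 under the model, moderation, weight, scaling and covariate alternatives. Exceptions were a one-way model without moderation (31) and an unmoderated t-test of adult against young mice (29). It was 20 for probe sets above the median level, 26 at a log2 level of at least 6, 297 at a fold of 1.2, 2 at a fold of 2 and 300 with no fold. It was 115 without young mouse 19 and adult mouse 11, and 55 to 117 as each mouse was left out, with 92, 117 and 77 without young mice 7, 19 and 20. With fewer young mice the mean of that group is less well measured, and the cause of the rise was not tested. The share of higher calls, 61.7%, was 50.0% without young mouse 7, 49.4% without young mouse 20 and 80.0% above the median level. At an adjusted p under 0.05 all of these alternatives gave 0, with a smallest adjusted p from 0.359 to 0.974. The alternatives run for single genes kept the call of 9 of the 43 named ones. A sign turned for Igfbp2 (-1.13 to 0.085 as single mice were left out, the latter without young mouse 19) and Gad2 (-0.52 to 0.14 likewise, and 0.073 without young mouse 19 and adult mouse 11), neither past the threshold. Of 572 list medians under alternatives, 548 moved by less than 1 SD between mice and 69 had the opposite sign. No paired analysis was possible because the groups share no mouse numbers.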
